A study of Mus musculus with 4 samples.

Results

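The genes described here encode the enzymes and transporters that take up glucose, break it down to pyruvate and lactate, pass pyruvate into mitochondria and divert sugar phosphates into the pentose phosphate pathway and glycogen. The 44 members were listed by name and pathway step, with earlier results of these data known. Of them, 37 had a probe set annotated to that gene alone, out of 22180 genes with such a probe set. Another 7 members (Gpi1, Pfkfb1, Aldoa, Eno1, G6pdx, Tkt and Pgm1) had none and were not analysed here. Fbp1, the gluconeogenic fructose bisphosphatase, averaged 3.61 in shControl and 3.56 in shYTHDF3 on the log2 scale, under the background level of 4.28 set by olfactory receptor probe sets, and was not tested. The remaining 36 were tested among 13056 genes above that level, and both group means of all 36 lay above it.

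RNA was measured on 4 arrays of 4T1Br, a mouse mammary carcinoma line that the sample titles call 4T1. Both groups were transduced with lentivirus and selected with puromycin: the 2 shControl arrays carried a control hairpin and the 2 shYTHDF3 arrays a hairpin against YTHDF3, a reader protein for N6-methyladenosine in messenger RNA. The question was which transcripts were more or less abundant with the YTHDF3 hairpin. The labels do not say whether the arrays came from separate cultures, clones or pools, so p-values measure the spread between these samples only, which may be technical.

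Ythdf3 itself, the targeted transcript, had log2 values of 8.98 and 8.81 with the control hairpin and of 8.21 and 8.16 with its own, so 61.1% of the control level remained (limma adjusted p = 0.0355). With no filter on dim probe sets that limma adjusted p was 0.0866. With 1 array left out the Ythdf3 difference ran from -0.79 to -0.63. Of 9 epithelial markers 6 lay above background, led by Krt8 and Krt18, while Krt14, Epcam and Esrp1 lay under it on average. Their summed log2 level was 53.3 and 53.4 in shControl, against 55.2 and 55.6 in shYTHDF3. Krt7 rose from a mean log2 value of 5.57 to 7.07 (limma adjusted p = 0.00816) and Krt18 and Krt8 differed by 0.57 and 0.31, whereas Krt19 differed by -0.53, none of these 3 past the test. Cdh1 and Cldn4, both close to background, differed by 0.10 and -0.03 with overlapping groups. Of 6 fibroblast markers 5 were above background and 2, Dcn and Pdgfra, were lower in shYTHDF3 by the limma test; the summed log2 level of the 6 was 33.9 and 34.6 in shControl, against 30.9 and 31.5 in shYTHDF3. That sum moved mainly with Dcn (-2.65) and Pdgfra (-0.61). Col3a1 differed by -0.23, and Pdgfrb and Col1a1 by 0.21 and 0.10, none past the test, while Lum lay under background in both groups. Only 1 of 6 immune, 1 of 4 endothelial and 2 of 5 neural markers were above background. Of these, the immune marker Cd68 differed by -0.72 (limma adjusted p = 0.0547) and the neural marker Map2 by 0.82 (limma adjusted p = 0.0725). The endothelial Cdh5 and the neural Rbfox3 both differed by -0.05, and none of these markers passed the test. The part of other cells in the differences below was not tested. In a bulk sample, fewer cells of a type and less RNA per cell cannot be told apart.

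Glycolysis splits glucose into pyruvate through a fixed series of enzymes, most of them with several isoforms encoded by separate genes. Tumour cells commonly run it fast and export lactate, and hypoxia-inducible factors and Myc are known to raise many of its genes. Control points include uptake, hexokinase, phosphofructokinase and, at the entry to mitochondria, pyruvate dehydrogenase, which is switched off by its kinases.

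Glycolytic genes from uptake to lactate were mostly lower in shYTHDF3, with differences below 0 in 17 of 21, though few passed the test. Slc2a3, a glucose transporter, and Pfkfb3, which makes the activator fructose 2,6-bisphosphate, fell to 49.6% and 52.8% of the shControl level. These were the 2 of 36 members, or 5.56%, that passed the limma test (adjusted p under 0.05 over all genes tested), against 1.45% of all genes called lower. No member passed in the higher direction, where 1.28% of all genes did. Differences were below 0 for 28 of the 36, against 48.9% of all genes, and the median member difference was -0.18 (log2, shYTHDF3 minus shControl), against 0.0057 over all genes.

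Before adjustment, 13 members were lower at a limma p under 0.05, which is 36.1% of those tested against 10.4% of all genes, and 2 were higher, or 5.56% against 12.2%. Both shYTHDF3 arrays lay below both shControl arrays in 25 members, or 69.4%, against 25.7% of all genes, and above both in 4 members, or 11.1%, against 28.3%. These shares describe members that belong to connected steps on the same arrays and are not independent of each other. The members were also listed with earlier results of these data known. When limma let the variance depend on intensity, 12 members passed as lower, or 33.3% against 5.33% of all genes, and none as higher, where 5.59% of all genes passed. The 12 were Slc2a1, Slc2a3, Hk2, Pfkp, Pfkfb3, Tpi1, Pgk1, Pgam1, Eno2, Ldha, Slc16a1 and Pdk1. With no filter on dim probe sets 0 members passed, against 0.131% of all genes called lower.

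**Figure D1:**
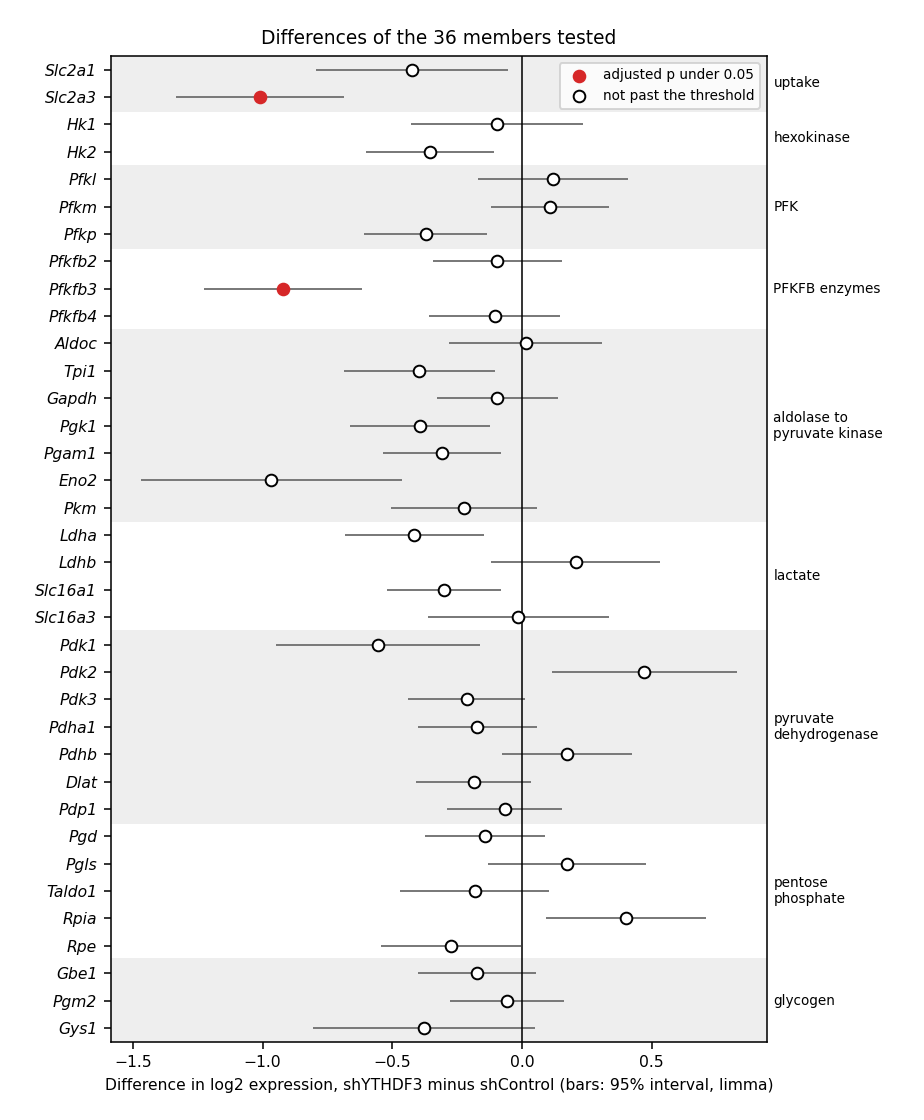
Difference in log2 expression (x axis, shYTHDF3 minus shControl) for each of the 36 members tested, grouped by pathway step on the y axis; bars are limma's 95% intervals and filled points passed the adjusted threshold of 0.05. Slc2a3 and Pfkfb3 are the filled points, Eno2 lies as far left with a wider bar, and Pdk2 and Rpia lie furthest right.

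Hypoxia-inducible factors bind ACGTG or GCGTG, the core of the hypoxia response element, and Myc binds the E-box CACGTG, which contains ACGTG. Promoters of Pfkfb3, Hk2, Pgk1, Ldha and Eno2, picked from the members lower before adjustment, are printed as examples. Windows of the other members enter only the counts below. The windows are the 250 bases before each RefSeq transcript start on build GRCm38.p6, written in the direction of the gene, with every match to those motifs on either strand in capitals. No window was held for Slc2a3.

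Pfkfb3 upstream start, chr2:11553930-11554179, minus strand: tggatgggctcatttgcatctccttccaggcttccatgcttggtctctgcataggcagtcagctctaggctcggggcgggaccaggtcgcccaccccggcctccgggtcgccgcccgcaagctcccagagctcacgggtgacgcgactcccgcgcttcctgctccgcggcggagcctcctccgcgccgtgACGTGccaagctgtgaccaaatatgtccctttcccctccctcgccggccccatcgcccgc
Pfkfb3 downstream start, chr2:11502091-11502340, minus strand: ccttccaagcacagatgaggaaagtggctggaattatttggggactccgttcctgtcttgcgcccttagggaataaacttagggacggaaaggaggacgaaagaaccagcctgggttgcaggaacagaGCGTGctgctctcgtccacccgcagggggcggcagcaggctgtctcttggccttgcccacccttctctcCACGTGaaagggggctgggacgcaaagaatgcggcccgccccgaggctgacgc
Hk2, chr6:82774455-82774704, minus strand: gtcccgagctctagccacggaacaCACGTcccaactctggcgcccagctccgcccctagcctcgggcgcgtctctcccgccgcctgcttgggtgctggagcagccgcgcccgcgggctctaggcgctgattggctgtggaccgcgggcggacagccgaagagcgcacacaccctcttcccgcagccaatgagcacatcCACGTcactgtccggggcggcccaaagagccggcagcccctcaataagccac
Pgk1, chrX:106186850-106187099, plus strand: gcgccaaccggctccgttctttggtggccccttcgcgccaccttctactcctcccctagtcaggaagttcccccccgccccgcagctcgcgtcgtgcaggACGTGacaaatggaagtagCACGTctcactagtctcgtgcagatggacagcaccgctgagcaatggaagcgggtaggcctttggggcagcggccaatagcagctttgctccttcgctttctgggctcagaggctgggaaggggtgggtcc
Ldha upstream start, chr7:46845554-46845803, plus strand: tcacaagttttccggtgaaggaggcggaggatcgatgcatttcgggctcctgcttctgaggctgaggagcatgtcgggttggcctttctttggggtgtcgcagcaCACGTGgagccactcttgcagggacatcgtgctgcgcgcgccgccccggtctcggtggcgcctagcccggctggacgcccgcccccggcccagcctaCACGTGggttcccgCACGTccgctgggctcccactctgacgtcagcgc
Eno2, chr6:124769674-124769923, minus strand: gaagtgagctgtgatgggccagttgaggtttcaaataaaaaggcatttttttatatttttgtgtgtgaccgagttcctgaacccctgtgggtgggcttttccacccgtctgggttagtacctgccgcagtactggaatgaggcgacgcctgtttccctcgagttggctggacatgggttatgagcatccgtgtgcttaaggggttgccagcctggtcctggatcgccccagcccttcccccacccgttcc

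The upstream Pfkfb3 window held 1 match and the downstream one 3, of which a pair overlap as the opposite strands of 1 E-box. Hk2, which encodes a hexokinase, and Pgk1, which encodes phosphoglycerate kinase, each held 2 core matches. The upstream Ldha window, from the lactate dehydrogenase A gene, held 5 matches, 4 of them within 2 E-boxes, while its downstream window, not printed, held 1 and no E-box. The window of Eno2, the neuronal enolase gene, held none. Over the 13 members lower before adjustment, 12 had windows, and 11 of their 15 windows, or 73.3%, held the hypoxia core; the other members tested held it in 24 of 32 windows, or 75%. Among all genes tested the share was 54.3% of 12881 windows, and among all RefSeq windows 38.6%. An E-box stood in 3 of the 15 windows, in 3 of the 32 and in 8.09% of the windows of all genes tested. The median GC content was 62.8% in the 15 windows, 59.0% in the 32 and 59.6% over all genes tested. These matches describe letters in a window and some windows of a gene overlap.

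Glucose enters cells through transporters of the Slc2a family, and both members were lower on the shYTHDF3 arrays. Slc2a3 read 5.43 and 5.66 in shControl, against 4.65 and 4.42 in shYTHDF3. The groups were apart by more than either pair of arrays, with a difference of -1.01 (SE 0.13, limma adjusted p = 0.0307), the 51st lowest of all 13056 genes. Both group means lay above background, but the shYTHDF3 values of 4.65 and 4.42 were close to it. The size of the Slc2a3 difference, and the 49.6% of the shControl level that remained, are therefore uncertain. With 1 array left out the Slc2a3 difference ran from -1.13 to -0.89. With no filter on dim probe sets its limma adjusted p was 0.0725.

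Slc2a1 encodes the widely expressed glucose transporter of tumour cells. It read 10.65 and 11.03 in shControl, against 10.50 and 10.33 in shYTHDF3, a difference of -0.42 (95% interval -0.80 to -0.05, limma adjusted p = 0.179). The groups did not overlap, but shControl 1 and shYTHDF3 1 lay close together. A dimmer probe set of Slc2a1, averaging 4.64, went the other way with a difference of 0.15 and overlapping groups. The Slc2a1 difference was -0.24 without shControl 2 and -0.14 as the mean of both probe sets.

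Hexokinases trap glucose by phosphorylation, and their isoforms differed in how they stood. Hk2, the inducible isoform bound to mitochondria, read 8.34 and 8.50 in shControl, against 8.04 and 8.09 in shYTHDF3 (difference -0.35, 95% interval -0.60 to -0.11, limma adjusted p = 0.122). Its arrays did not overlap between groups. Hk1, the housekeeping isoform, read 7.51 and 7.62 in shControl, against 7.64 and 7.31 in shYTHDF3, so the groups overlapped (difference -0.10, 95% interval -0.43 to 0.23, and 0.067 without shYTHDF3 2).

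Phosphofructokinase commits sugar to glycolysis, and its subunit genes went different ways without passing the test. Pfkp, the platelet-type subunit gene, read 9.69 and 9.79 in shControl, against 9.42 and 9.33 in shYTHDF3 (difference -0.37, 95% interval -0.61 to -0.13, limma adjusted p = 0.103). Both shYTHDF3 arrays were the lower ones. Pfkl, the liver-type subunit gene, read 8.49 and 8.68 against 8.80 and 8.61, with overlapping groups and a difference of 0.12 (95% interval -0.17 to 0.41). Pfkm, the muscle-type subunit gene, read 6.64 and 6.70 against 6.82 and 6.74, a difference of 0.11 (95% interval -0.12 to 0.34) with the shYTHDF3 arrays just above. The differences between subunits were not tested.

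The bifunctional PFKFB enzymes make and remove fructose 2,6-bisphosphate, the activator of phosphofructokinase. Pfkfb3, the isoform with the strongest kinase activity, read 6.77 and 7.05 in shControl, against 6.02 and 5.96 in shYTHDF3. The difference of -0.92 (SE 0.12, limma adjusted p = 0.0321) was several times the gap between arrays of a group. With 1 array left out it ran from -1.06 to -0.78. With no filter on dim probe sets the limma adjusted p of Pfkfb3 was 0.0728. Pfkfb2, known from heart, read 6.25 and 6.08 against 6.07 and 6.07 (difference -0.09, 95% interval -0.34 to 0.15). Pfkfb4, another isoform known to respond to hypoxia, read 5.84 and 5.93 against 5.86 and 5.70 (difference -0.11, 95% interval -0.36 to 0.15). Both differed by less than Pfkfb3 did, though the differences between isoforms were not tested.

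Of the 7 measured genes from aldolase to pyruvate kinase, 6 had differences below 0, against 48.9% of all genes. Before adjustment 4 were lower, against 10.4% of all genes, and the step median was -0.31. Pgam1 was among the 4 and gave that median, and its second probe set, described below, differed by less. Eno2, an enolase gene best known from neurons, had the second lowest difference of all members. It read 6.90 and 7.50 in shControl, against 6.15 and 6.31 in shYTHDF3, a difference of -0.97 (95% interval -1.47 to -0.46, limma adjusted p = 0.0704). The groups were well apart, but the shControl arrays differed from each other more than those of any other member.

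Tpi1, triose phosphate isomerase, read 11.32 and 11.41 in shControl, against 11.09 and 10.84 in shYTHDF3 (difference -0.40, 95% interval -0.69 to -0.11, limma adjusted p = 0.133). Pgk1, the enzyme of the first ATP-yielding step, read 11.51 and 11.65 against 11.28 and 11.10 (difference -0.39, 95% interval -0.66 to -0.12, limma adjusted p = 0.117). In both genes shYTHDF3 2 was the lowest array and shControl 2 the highest. The other genes of the step ran from -0.31 for Pgam1, phosphoglycerate mutase, to 0.014 for Aldoc, the brain-type aldolase, with Pkm, pyruvate kinase, at -0.22 and Gapdh at -0.10.

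Probe sets of the same gene did not always give the same size. Pgam1 had a second set at -0.05 with overlapping groups, and Gapdh had others at -0.07 and -0.27; both genes have near-identical copies, so which copy a set read is uncertain. The brightest Gapdh set averaged 13.19, near the top of the range of these arrays.

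Lactate dehydrogenase turns pyruvate into lactate, and its subunit genes stood on opposite sides. Ldha, whose subunit favours lactate formation, read 8.36 and 8.26 in shControl, against 7.99 and 7.80 in shYTHDF3 (difference -0.41, 95% interval -0.68 to -0.15, limma adjusted p = 0.105). Ldhb, the heart-type subunit gene, read 5.40 and 5.21 against 5.38 and 5.65, with overlapping groups (difference 0.21, 95% interval -0.12 to 0.53). Slc16a1, which encodes a proton-linked carrier of lactate, read 10.62 and 10.59 against 10.29 and 10.31. Its arrays agreed closely within each group, for a difference of -0.30 (95% interval -0.52 to -0.08, limma adjusted p = 0.132). Slc16a3, the carrier gene linked to lactate export from glycolytic cells, averaged 4.43 and 4.41, close to background, with a difference of -0.01 (95% interval -0.36 to 0.33).

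**Figure D2:**
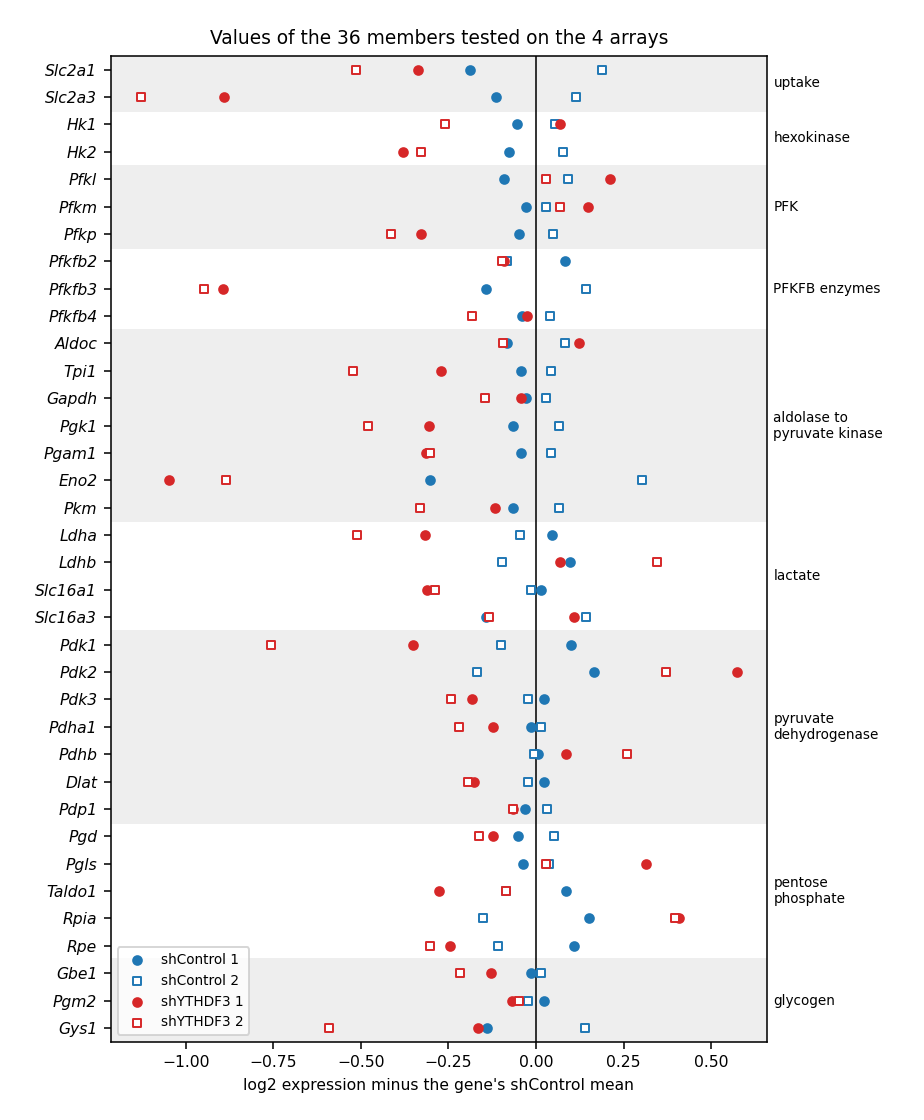
Log2 expression on each of the 4 arrays minus the gene's shControl mean (x axis) for the 36 members tested, grouped by pathway step on the y axis; circles are replicate 1 and squares replicate 2. In Slc2a3, Pfkfb3 and Eno2 the shYTHDF3 arrays lie far to the left, and in many glycolytic genes shYTHDF3 2 lies left of shYTHDF3 1.

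Pyruvate dehydrogenase feeds pyruvate to the citric acid cycle, and its inhibitory kinases went in different directions. Pdk1, the hypoxia-induced kinase gene, read 8.01 and 7.81 in shControl, against 7.56 and 7.15 in shYTHDF3 (difference -0.55, 95% interval -0.95 to -0.16, limma adjusted p = 0.124). It differed by -0.35 without shYTHDF3 2 and by -0.19 as the mean with a dim second probe set, which averaged 3.98, under background. Pdk2, the broadly expressed kinase gene, read 5.65 and 5.32 against 6.06 and 5.86 (difference 0.47, 95% interval 0.12 to 0.83, limma adjusted p = 0.141). It had the highest difference of the members, and was 0.31 without shControl 2; neither gene's groups overlapped.

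Pdk3, another of these kinase genes, read 7.92 and 7.87 against 7.72 and 7.66 (difference -0.21, 95% interval -0.44 to 0.01). Of the enzyme's own subunits, Pdha1 differed by -0.17, Pdhb by 0.17 and Dlat by -0.19, and the phosphatase gene Pdp1, which reverses the kinases, by -0.07. All 7 genes of this step had groups that did not overlap, 5 lower and 2 higher, against 25.7% and 28.3% of all genes, and none passed the adjusted test.

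The pentose phosphate pathway supplies NADPH and ribose. Of its 5 measured genes, 3 differed downward and 2 upward, none past the test, where 48.9% of all genes differed downward. Rpia, which makes ribose 5-phosphate, read 6.29 and 5.98 in shControl, against 6.54 and 6.53 in shYTHDF3 (difference 0.40, 95% interval 0.09 to 0.71, limma adjusted p = 0.144). Rpe, the epimerase that competes for the same substrate, read 8.66 and 8.44 against 8.30 and 8.25 (difference -0.27, 95% interval -0.54 to -0.0034, limma adjusted p = 0.217). The groups were apart in both genes, in opposite directions; Rpia differed by 0.25 without shControl 2 and Rpe by -0.17 without shControl 1.

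Taldo1, transaldolase, read 7.71 and 7.54 against 7.35 and 7.54 (difference -0.18, 95% interval -0.47 to 0.10), the shControl 2 and shYTHDF3 2 values being nearly alike. Pgd, the NADPH-producing phosphogluconate dehydrogenase, differed by -0.14 and Pgls, the lactonase before it, by 0.17. Of the glycogen genes, Gys1, glycogen synthase, read 8.50 and 8.78 against 8.48 and 8.05 (difference -0.38, 95% interval -0.81 to 0.05). Its groups were separated by little, and with 1 array left out the difference ran from -0.59 without shYTHDF3 1 to -0.16 without shYTHDF3 2, with -0.24 without shControl 2. Gbe1, the branching enzyme, read 7.66 and 7.69 against 7.54 and 7.45 (difference -0.17, 95% interval -0.40 to 0.06). Pgm2, a phosphoglucomutase family gene, read 8.76 and 8.71 against 8.67 and 8.69 (difference -0.06, 95% interval -0.28 to 0.16).

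By stretch of the pathway, the 21 genes from uptake to lactate had a median difference of -0.30, and 11 of them, or 52.4%, were lower before adjustment, against 10.4% of all genes. The 15 genes of pyruvate dehydrogenase, the pentose phosphate pathway and glycogen had a median of -0.17, with 2, or 13.3%, lower before adjustment. Groups were apart on the lower side in 14 of the 21 and in 11 of the 15, or 66.7% and 73.3%, against 25.7% of all genes. A gap of any size counted as apart, over all genes too. Among those counted were Pfkfb2 (6.082 on shControl 2, 6.073 on shYTHDF3 1) and Taldo1 (7.5397 on shControl 2, 7.5388 on shYTHDF3 2). The difference between these stretches was not tested.

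Members also varied together between arrays of 1 group. Relative to each gene's shControl mean, the members' median was -0.035 on shControl 1, 0.035 on shControl 2, -0.13 on shYTHDF3 1 and -0.22 on shYTHDF3 2, while that of all genes lay between -0.0093 and 0.014. On shYTHDF3 2, 27 of 36 members, or 75%, read lower than on shYTHDF3 1, against 53.6% of all genes. On shControl 2, 23 members, or 63.9%, read higher than on shControl 1, against 45.5% of all genes. The array that ranked lower within a group for most members was thus shYTHDF3 2 in one group and shControl 1 in the other, and the members' median without shYTHDF3 2 was -0.13.

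Other genes of sugar metabolism, listed by function, were split evenly. Of 86 listed, 77 had a probe set of their own and 50 were tested. Their differences were below 0 in 25 and above 0 in 25, with a median of 0.0037. Before adjustment 6 were lower and 4 higher, or 12% and 8% against 10.4% and 12.2% of all genes. By limma 2 of the 50, or 4%, passed, both higher, against 1.28% of all genes. Groups were apart on the lower side in 14 and on the higher side in 17, or 28% and 34% against 25.7% and 28.3% of all genes.

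Mpc1, a subunit of the carrier that brings pyruvate into mitochondria, rose in shYTHDF3. It read 10.00 and 9.92 in shControl, against 10.69 and 10.80 in shYTHDF3, a difference of 0.78 (SE 0.10, limma adjusted p = 0.0291), or 172% of the control level. In this brighter probe set the gap between groups was several times that within them. A dimmer Mpc1 probe set also stood higher, by 0.41 with groups apart. As the mean of both sets the Mpc1 difference was 0.60 (limma adjusted p = 0.044). The size of the rise thus depended on the probe set, and where each set maps was not checked. Pgm2l1, which makes glucose 1,6-bisphosphate, read 5.98 and 5.83 against 6.50 and 6.53 and rose by 0.61 (SE 0.10, limma adjusted p = 0.0432). Both calls ended with no filter on dim probe sets. With 1 array left out the Mpc1 difference lay between 0.73 and 0.84 and that of Pgm2l1 between 0.53 and 0.68.

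At the other end, Hkdc1, a hexokinase-like gene, read 4.69 and 4.83 in shControl, against 4.09 and 4.40 in shYTHDF3 (difference -0.51, limma adjusted p = 0.105), and Nhlrc1, whose product takes part in glycogen control, read 4.65 and 4.71 against 4.46 and 4.09 (difference -0.40, limma adjusted p = 0.176). The shYTHDF3 means of both lay under background, so the sizes are uncertain, and Nhlrc1 differed by -0.22 without shYTHDF3 2. Of the 14 other glycogen genes tested, singled out after their values were seen, 11 had differences above 0, as had 6669 of the 13056 genes. In 9 of the 14 the groups were apart on the higher side, against 28.3% of all genes; their median was 0.20 and Pgm2l1 was the 1 past the test.

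**Figure D3:**
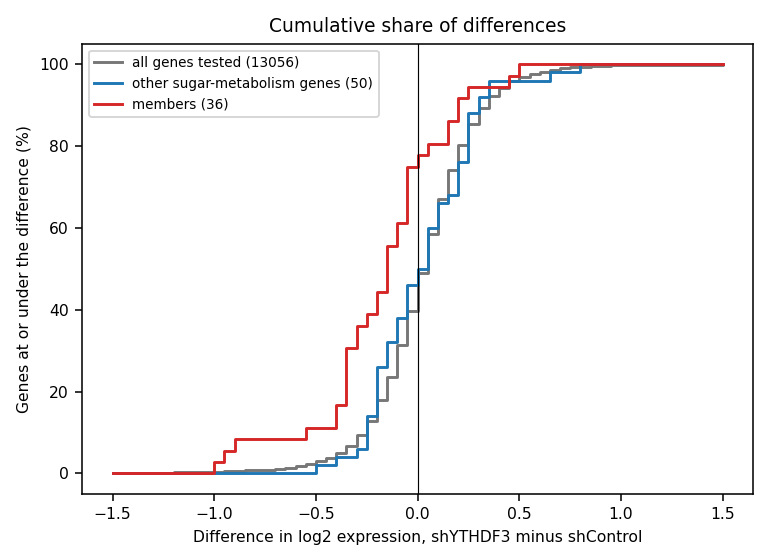
Share of genes (y axis, percent) at or under each difference in log2 expression (x axis, shYTHDF3 minus shControl) for all 13056 genes tested, the 36 members and the 50 other sugar-metabolism genes tested. The members' curve lies to the left of both others over most of its range, with medians of -0.18, 0.0057 and 0.0037 for members, all genes and the other sugar-metabolism genes.

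Factors known to control these genes were measured too. Myc, a transcription factor that raises glycolytic genes, read 10.14 and 10.15 in shControl, against 9.35 and 9.36 in shYTHDF3, and fell by 0.78 (SE 0.09, limma adjusted p = 0.0253) to 58.1% of the control level. Its arrays were nearly identical within each group, and with 1 array left out the difference stayed between -0.79 and -0.78. With no filter on dim probe sets the limma adjusted p of Myc was 0.0667. Hif1a, the inducible subunit of a hypoxia-inducible factor, read 10.01 and 9.82 against 9.48 and 9.64 (difference -0.35, 95% interval -0.64 to -0.07, limma adjusted p = 0.153, and 0.0310 with the intensity trend), and Epas1, its paralog, averaged 3.39 in both groups, under background.

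Txnip, which binds and removes glucose transporters from the cell surface, rose by 1.46 (SE 0.20, limma adjusted p = 0.0338) from 7.39 and 6.77 to 8.60 and 8.50. The Txnip difference ran from 1.15 to 1.77 with 1 array left out, and with no filter on dim probe sets its limma adjusted p was 0.0728. Its relative Arrdc4 read 4.93 and 5.41 against 5.49 and 5.46 (difference 0.31, 95% interval -0.10 to 0.72), and its difference was 0.068 without shControl 1 and 0.55 without shControl 2. The sugar-sensing factor Mlxip differed by 0.11 (95% interval -0.14 to 0.35). Its relative Mlxipl differed by -0.02 (95% interval -0.58 to 0.54), with no fixed direction across scalings and arrays left out.

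**Figure D4:**
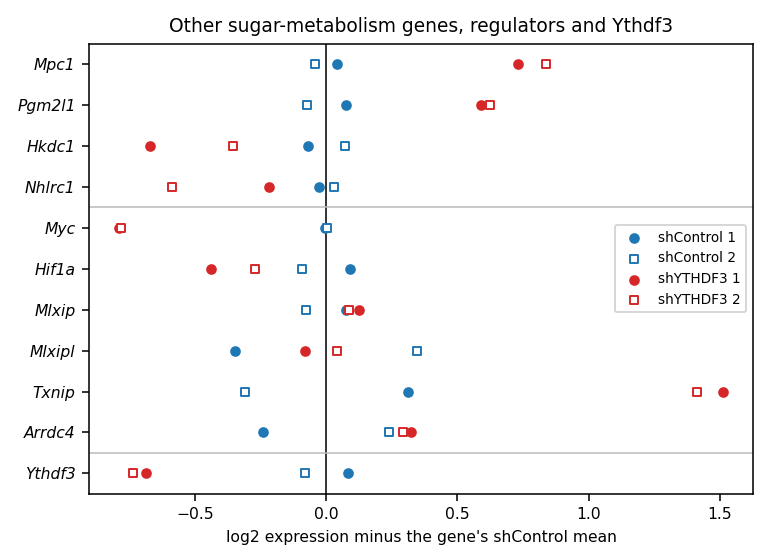
Log2 expression on each of the 4 arrays minus the gene's shControl mean (x axis) for 4 other sugar-metabolism genes, 6 regulators and Ythdf3 (y axis, divided by grey lines); circles are replicate 1 and squares replicate 2. Mpc1, Pgm2l1 and Txnip lie to the right on both shYTHDF3 arrays, and Myc and Ythdf3 to the left.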

How the data were processed

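RNA of 4 arrays was analysed from the log2 values the authors deposited, 1 per probe set and array, normalised by RMA according to the submitters' processing notes. The log base was inferred from their range; for the software, its version and the genome build, nothing is given in the sources used here. RMA makes the distributions of arrays alike, so a shift of most genes one way would not be seen. The table held 41345 probe sets, of which 23521 had 1 gene symbol, 1814 several and 16010 none; symbols were updated by Entrez identifier to RefSeq (23328 matched). A gene took its brightest probe set. Background was the 95th percentile of 1108 olfactory receptor probe sets (log2 4.28), and the 13056 genes averaging above it were tested with limma 3.58.1 in R 4.3.3 (two-sided, Benjamini-Hochberg over all of them, threshold 0.05). SE and intervals are limma's moderated ones, on the log2 scale, and a bare "before adjustment" means a limma p under 0.05. Promoter sequences are RefSeq's (GRCm38.p6), and 34 of the 36 members tested had a window. The members and lists were chosen with earlier results of these data known. Values on all arrays are given for members past the threshold and the 3 with the largest difference in each step, and for the other genes past it, the 2 highest and 2 lowest, and the regulators. Members chosen for other remarks were picked after their values were seen. The fit was tested on simulated data. The number of arrays limits the precision. Figures were drawn with matplotlib 3.10.9.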

Additional observations from a re-analysis of the deposited data

How the results depend on the processing

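The members' median difference stayed below 0 under every alternative run, from -0.22 without shYTHDF3 1 to -0.13 without shYTHDF3 2, the latter a larger move than the spread between replicates. Fits with an intensity trend or with the replicate number as a block leave the differences unchanged, so their median of -0.18 was fixed in advance. The 2 lower members, the 2 higher sugar-metabolism genes and the 356 calls over all genes depended on the variance model and the filter. With no filter on dim probe sets limma called 43 genes, 0 members and 0 other sugar-metabolism genes. With an intensity trend it called 1426 genes and 12 members as lower, and with the robust form 1465 and 12. With 1 array left out it called 0 to 12 genes, 0 members and 0 other sugar-metabolism genes; such fits have fewer residual degrees of freedom and take the lone array to vary like the other group. With the replicate number as a block it called 51 genes, 0 members and 0 other sugar-metabolism genes. Deviations of same-numbered arrays correlated at -0.066 across genes, and with 2 pairs the numbers do not show a pairing. Hk1 ranged from -0.26 to 0.067 and Mlxipl from -0.37 to 0.33 with 1 array left out, and Mlxipl was 3.8e-04 after quantile normalization once more. For the genes named with values, 365 comparisons with an alternative kept direction and side of the threshold, 42 lost the call, 20 gained it and 4 turned direction. Most of the 365 belong to genes not called in the main fit, which had no call to lose. The 42 all came from the named genes that were called. Each of these lost its call with no filter and with the replicate number as a block. A filter set at the probe sets' median, the repeated quantile normalization, the common median and the mean of all probe sets kept the same 2 member calls.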
